A study of Aedes aegypti with 5 samples.

Results

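The second day after a blood meal was examined in the salivary glands of female Aedes aegypti, the yellow fever mosquito, by setting the glands taken at 48 hours post feeding (hpf) directly against those taken at 24 hpf, without the unfed glands as the base. The comparison covers 2 of the 5 RNA samples of the series, with 3 arrays each, so 6 of 15 arrays, and all 433 gene probes of the array. Both groups were females of the Higgs white eye strain that had been starved and then fed on a BALB/c mouse until engorged, and they differed in the time at which the glands were dissected, 24 or 48 hours later. Each group is 1 pool of RNA from several mosquitoes and its arrays are technical replicates, so that every error and test below compares 2 pools and holds no measure of how mosquitoes differ. The sequences of the probes were not used here, so that whether a probe can tell close relatives of a gene family apart was not examined.

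The salivary gland of a female mosquito makes the proteins that are injected while it probes for blood, among them apyrases that degrade ADP, D7 and other odorant binding proteins that bind small mediators of the host, and proteins of the 30 kDa family, whose studied member aegyptin binds collagen. It also makes antimicrobial peptides and recognition proteins, and mucins that coat the duct. Feeding empties the gland, and the stored saliva is made again over the following days, so that the messages for saliva, for the machinery that makes it and for immunity can each be followed during that time.

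The measurement is a normalized intensity. The mean signal of the empty spots is subtracted from every spot of an array, and the remainder is given in units of the average remainder of the actin and ribosomal protein S5 spots. A value of 0 is therefore the level of an empty spot. A probe counts as detected on an array if its signal passed the mean of the empty spots plus 2 SD, and as saturated from a raw intensity of 60000 upward. Between 129 and 162 probes were detected on the 24 hpf arrays and between 121 and 142 on the 48 hpf arrays, and 36 to 54 and 33 to 51 were saturated. The S5 spot was saturated on replicate 3 of both groups, and actin made up 1.56% to 7.63% of the reference on the 6 arrays. The 9 markers of the female gland were detected in both groups, and 7 of them, among them apyrase (L12389) and the long D7 proteins, were saturated on all 6 arrays. Myosin light chain (AE-377), a muscle marker, was detected on 0 arrays.

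Most genes that could be measured differed little between 24 and 48 hpf, and in the normalized values those that differed by a large factor were more often lower at 48 hpf, an order that turned when 1 array was left out. Of the 433 probes, 153 were detected on at least 2 arrays of 24 hpf or of 48 hpf, and these are called the detected probes. In 126 of these that held in both groups, in 23 at 24 hpf alone and in 4 at 48 hpf alone. The limit of detection above the empty spots, in normalized units, was 0.0731, 0.0423 and 0.144 on the 24 hpf arrays. On the 48 hpf arrays it was 0.0860, 0.0755 and 0.140. For replicates 1 and 2 dimmer probes could thus count at 24 hpf, and the counts of detection depend on that limit. The ratio of the mean at 48 hpf to the mean at 24 hpf was at least 2 for 22 probes (5.08% of 433) and at most 0.5 for 59 (13.6%), but 15 and 35 of these never reached the 153 and are ratios of small numbers near the empty spots. Among the 153 it was at least 2 for 7 (4.58%), at most 0.5 for 24 (15.7%) and between these limits for 120, while 2 had no ratio because the mean at 48 hpf was below the empty spots. Of the 24 low ratios, 14 belong to probes that were detected on no array of 48 hpf, for which at most a lower bound of the fold is given below. Without 24 hpf replicate 3 the counts over all 433 probes turned to 53 at least 2 and 29 at most 0.5, and they were 46 and 45 with quantile normalization and 12 and 12 with the normexp background.

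The bright end of the array carried no information on a difference. On all 6 arrays 30 probes were saturated, with a median ratio of raw intensities of 0.998 and of normalized intensities of 1.09. Of the 123 probes that were detected and not at the ceiling throughout, 121 had a ratio, with a median of 0.883, 48 being higher and 73 lower at 48 hpf. With the probes that were undetected in 1 group at the bound of their fold, the median of the 123 was 0.978.

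**Figure D1:**
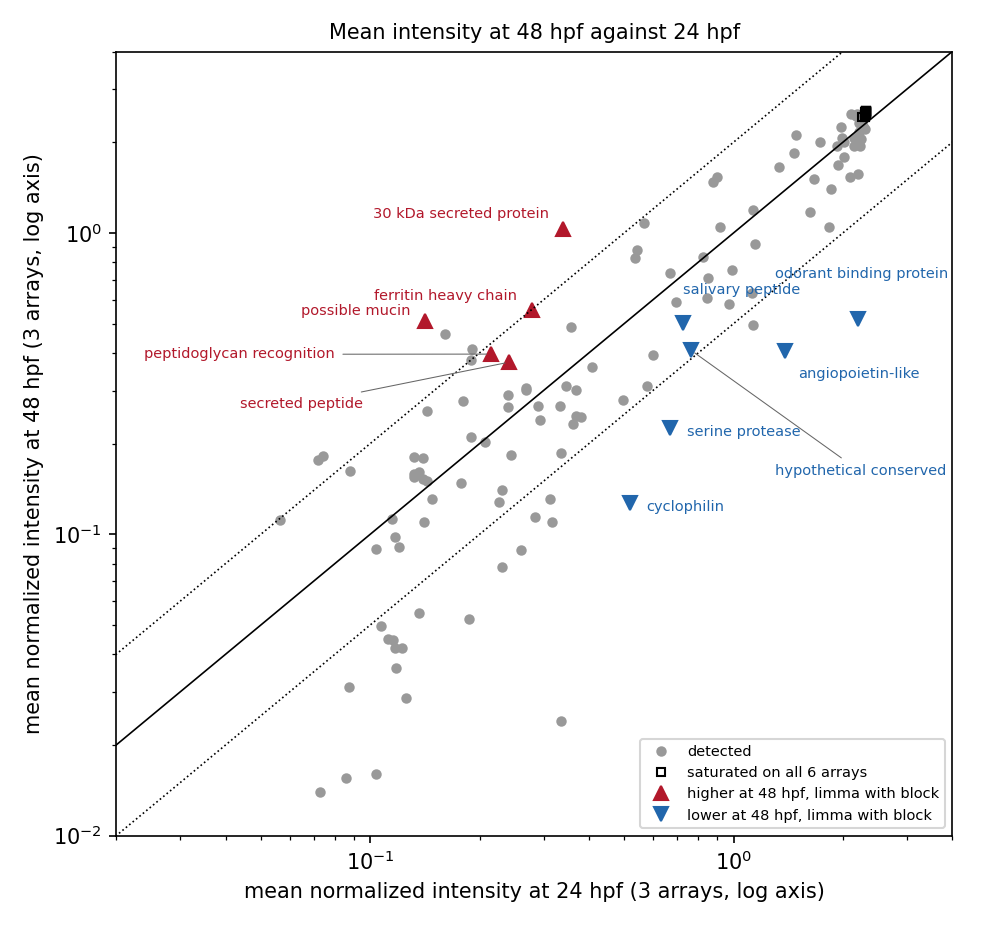
Mean normalized intensity of each gene probe at 48 hpf (vertical) against 24 hpf (horizontal), means of 3 arrays on log axes, for the detected probes that have a ratio. The solid line is a ratio of 1, the dotted lines 2 and 0.5, triangles mark the 5 higher and 6 lower probes past limma with the replicate block, and open squares the 30 probes saturated on all 6 arrays.

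In the test without a block, limma on log2 values raised to a floor of 0.108 and fitted over all 5 groups, 0 of 432 probes passed an adjusted p of 0.05 as higher (0%) and 0 as lower (0%). The smallest adjusted p was 0.209, and 7 higher and 8 lower probes had an unadjusted p under 0.05. Arrays with the same replicate number shared much of their deviation, replicate 3 having the highest values of both groups for most genes. With the replicate number as a block, 5 probes passed as higher (1.16%) and 6 as lower (1.39%), and 15 and 28 had an unadjusted p under 0.05. Of these 11, 2 were at least 2-fold higher, 4 at most 0.5-fold, and none was saturated throughout. "Rose" and "fell" are used below of these 11 only, as calls that hold with the block and not without it. When the block was fitted to the 6 arrays of 24 and 48 hpf alone, which leaves few degrees of freedom, 0 of the 11 passed, with 31 probes under an unadjusted p of 0.05. Of the 432 probes, 218 were at the floor on every array and entered the shared estimate of the spread. Fitted to the 152 detected probes alone, limma gave 0 higher and 2 lower without the block, and 14 and 23 with it.

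**Figure D2:**
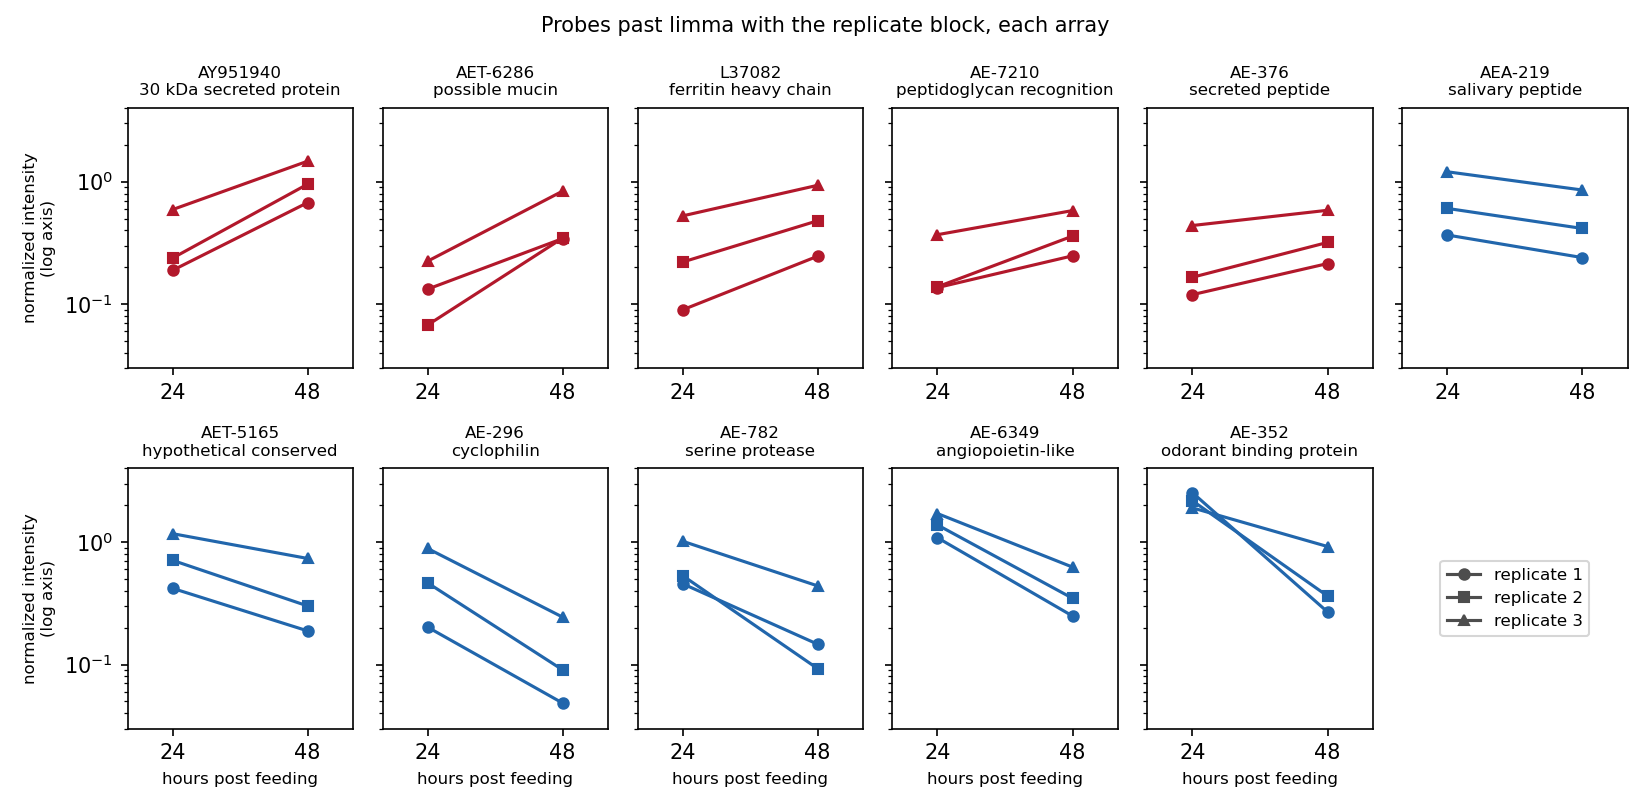
Normalized intensity (vertical, log axis) of the 11 probes past limma with the replicate block on each array at 24 and 48 hpf (horizontal), with lines joining arrays of the same replicate number. All 3 lines run the same way in each panel, upward in the 5 red ones and downward in the 6 blue ones, while in 6 of the 11 the values of the groups overlap.

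Among the proteins that bind small molecules in saliva, an odorant binding protein fell. The probe AE-352 had normalized intensities of 2.53, 2.17 and 1.90 on the 24 hpf arrays and 0.269, 0.362 and 0.919 on the 48 hpf arrays. The groups do not overlap, and at 24 hpf the spot was at the ceiling on 2 arrays and close to it on the other, at a raw intensity of 59433, so that the 24 hpf level is known only as a value at the top of the range and the fold and its SE rest on it. The ratio was 0.235, and the log2 difference fell by 2.29 with an SE of 0.50, or 0.40 with the block (limma, adjusted p 0.209, and 0.0195 with the block). When limma was fitted to the detected probes alone, AE-352 passed without a block as well (adjusted p 0.0203), as 1 of 2 lower probes among 152 tested (1.32%). Such a fit changes both the shared estimate of the spread and the adjustment. With the block it passed in 9 of 15 other fits and not, for example, without 24 hpf replicate 2, where the adjusted p was 0.122.

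The D7 proteins, which bind biogenic amines and leukotrienes of the host, had ratios nearer to 1, and none passed. The short form D7s4 (AE-256) had 1.19, 1.52 and 1.76 at 24 hpf and 2.33, 2.08 and 1.94 at 48 hpf. All values of 48 hpf lay above those of 24 hpf, with 2 of them at the ceiling, and the ratio was 1.42 (adjusted p 1, and 0.409 with the block). The D7s3 allele (AE-182) had a ratio of 0.639 with overlapping groups. The phosphatidylethanolamine-binding protein AET-458, of a family of lipid carriers, had a ratio of 0.336 and was detected on 3 arrays at 24 hpf and on 1 at 48 hpf. Of the 12 carriers 8 were detected, 2 of them saturated throughout, and the median ratio of the other 6 was 0.751, beside 0.883 for all 121. By limma with the block 0 rose and 1 fell.

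In the 30 kDa family 1 member rose. This was AY951940, a putative 30 kDa secreted protein, which had 0.189, 0.238 and 0.592 at 24 hpf and 0.675, 0.955 and 1.47 at 48 hpf. The groups do not overlap, the same-numbered arrays were 3.57, 4.01 and 2.48 times higher, and the ratio of means was 3.04. The log2 difference was 1.72, with an SE of 0.50 or, with the block, 0.21 (adjusted p 0.475, and 0.00641 with the block). Among the 11 this call was lost least often, in 1 of 15 other fits with the block, the one on the 6 arrays alone (adjusted p 0.444). Its relatives could not be followed, since Ae-41 and AF466608 were saturated on all 6 arrays and the secreted protein AE-260 on 5 of them, with a ratio of 1.18 between values at the ceiling.

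The enzymes of saliva that act on nucleotides, sugars and esters mostly stood at the ceiling or differed little. Of 9, 8 were detected, 4 of these saturated throughout, and 0 passed limma with or without the block. The second apyrase or 5' nucleotidase (AET-617), which removes ADP or AMP, had 0.719, 0.876 and 1.37 at 24 hpf and 0.535, 0.687 and 1.04 at 48 hpf, a ratio of 0.763. It was lower on each of the 3 same-numbered pairs, but the groups overlap (adjusted p 1, and 0.274 with the block). Adenosine deaminase (AF466610), which turns adenosine into inosine, had a ratio of 0.722, the salivary alkaline phosphatase (AET-5851) 1.26 with non-overlapping arrays, and the carboxylesterase AF466590 a ratio of 0.420 (adjusted p with the block 0.0938). The 4 detected protease inhibitors lay between 0.832 and 0.994.

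Among the immunity genes, the message of an angiopoietin-like protein fell, 2 antimicrobial peptides had lower values that did not pass, and a peptidoglycan recognition protein rose. Of the 20 genes of immunity and microbe recognition, 16 were detected and 5 of these were saturated throughout. The other 11 had a median ratio of 0.799, or 0.909 with AET-670, which resembles UDP-glucosyltransferases and was undetected at 48 hpf, at a ratio of 1 for want of a bound, with 3 higher and 8 lower, beside 0.883 for all 121 probes. By limma with the block 1 rose and 1 fell, and without it 0 passed.

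The angiopoietin-like protein AE-6349 carries the fibrinogen-like fold with which related insect proteins bind microbes. It had 1.08, 1.38 and 1.71 at 24 hpf and 0.249, 0.347 and 0.624 at 48 hpf. Every value of 48 hpf was below every value of 24 hpf, none was at the ceiling, and the ratio was 0.293. The log2 difference fell by 1.85 with an SE of 0.39, or 0.26 with the block (adjusted p 0.209, and 0.00943 with the block). In limma fitted to the detected probes alone, it was the other lower probe to pass without a block, with an adjusted p of 0.0203. With the block it passed in 11 of 15 other fits, and without 48 hpf replicate 2 the adjusted p was 0.0652. The splice variant AE-154 of an angiopoietin-like protein was saturated on all 6 arrays and gives no fold.

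Defensin A1 (S82860), a peptide that attacks mainly Gram-positive bacteria, had 0.794, 1.02 and 1.57 at 24 hpf and 0.324, 0.330 and 0.827 at 48 hpf. The ratio was 0.437 and each 48 hpf array was lower than the 24 hpf array of its number, while the groups overlap by a single pair of values (adjusted p 0.473, and 0.0874 with the block). Gambicin (AF466602), an antimicrobial peptide known from mosquitoes, had 1.80, 1.85 and 1.86 at 24 hpf, the last at the ceiling, and 0.706, 0.942 and 1.49 at 48 hpf. Here the groups do not overlap, the ratio was 0.570, and the adjusted p was 0.209, or 0.0518 with the block. Without 48 hpf replicate 3, the array with the highest values of its group, both passed the test without a block, with adjusted p-values of 0.0192 and 0.000524. With any other array left out neither passed it, the lowest adjusted p-values being 0.388 for defensin A1 and 0.318 for gambicin. The protein I23Ma (AEA-233), listed among the immunity genes, had a ratio of 0.732 with non-overlapping groups, and the bacteria responsive protein AEA-871BRE one of 0.799.

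The peptidoglycan recognition protein AE-7210, of a family that binds bacterial cell wall, went the other way. It had 0.137, 0.139 and 0.369 at 24 hpf and 0.248, 0.360 and 0.581 at 48 hpf. The groups overlap, and the same-numbered arrays were 1.82, 2.59 and 1.57 times higher at 48 hpf. The ratio of means was 1.84, and the log2 difference 0.96 with an SE of 0.58, or 0.16 with the block (adjusted p 1, and 0.0178 with the block). This call was lost in 7 of 15 other fits with the block, with an adjusted p of 0.106 without 24 hpf replicate 2.

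Serine proteases act in saliva and in the cascades of insect immunity, and 1 of 9 fell. The serine protease AE-782 had 0.457, 0.532 and 1.02 at 24 hpf and 0.147, 0.0926 and 0.438 at 48 hpf. The groups do not overlap, the ratio was 0.338, and the log2 difference fell by 1.72 with an SE of 0.58, or 0.22 with the block (adjusted p 0.594, and 0.00641 with the block). It passed with the block whichever of the 6 arrays was left out, the highest adjusted p being 0.0499, but not with the normexp background correction, where the adjusted p was 1. AF466600, a putative serine protease, had a ratio of 0.715 with non-overlapping groups, 2 arrays of 24 hpf being at the ceiling.

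Dim members of the cascade that activates prophenoloxidase, the enzyme of melanin formation, were near the limit of the array. The activating protein AF466614 and the clip-domain protease AET-6559 were detected on 3 arrays at 24 hpf and on 0 at 48 hpf, and AET-6559 was at least 1.05-fold lower, while AF466614 gives no bound. For a bound, each array of the dim group was given the lowest detected signal of that array, or the probe's own where that was higher, and its log2 mean was compared with that of the brighter group's own values. No bound is given where it came to less than 1. AET-5733, a prophenoloxidase activator, was detected on 0 arrays at 24 hpf and on 2 at 48 hpf, and was at least 1.86-fold higher, but without 48 hpf replicate 3 its log2 difference turned to -0.048. None of these 3 passed limma with or without the block (adjusted p 0.932 or more). The median of the 7 serine proteases off the ceiling was 0.558, or 0.955 with the 3 dim ones at their bound or, without one, at a ratio of 1.

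Mucins are glycoproteins that line ducts, and peritrophins carry the chitin-binding folds of the peritrophic matrix. In this group 1 member rose and others had lower values that did not pass. The possible mucin AET-6286 had 0.133, 0.0676 and 0.224 at 24 hpf and 0.343, 0.347 and 0.838 at 48 hpf. Every array of 48 hpf was above every array of 24 hpf, the same-numbered arrays were 2.59, 5.13 and 3.73 times higher, and the ratio of means was 3.60. The log2 difference was 1.65 with an SE of 0.50, or 0.10 with the block (adjusted p 0.496, and 9.56e-05 with the block). With the block it passed whichever array was left out, with adjusted p-values between 0.000203 and 0.00152, and not with the floor doubled, where the adjusted p was 0.0724.

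A putative mucin (AE-329) had 0.128, 0.114 and 0.329 at 24 hpf and 0.255, 0.262 and 0.721 at 48 hpf, a ratio of 2.17 with overlapping groups (adjusted p 1, and 0.0786 with the block). The mucin-like peritrophin AE-466 had 0.357, 0.336 and 0.798 at 24 hpf and 0.214, 0.116 and 0.509 at 48 hpf, a ratio of 0.563 (adjusted p with the block 0.0985), and the salivary mucin AE-979 a ratio of 0.597. Of the 12 mucins and peritrophins 9 were detected, and of the 8 off the ceiling 4 were higher and 4 lower, with a median of 0.941. By limma with the block 1 rose and 0 fell.

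Secreted proteins of unknown function form the largest group, and its members lay on both sides of a ratio of 1. Of 44 probes 35 were detected and 10 of these were saturated throughout, and the other 25 divided into 13 higher and 12 lower with a median ratio of 1.04 and a range of 0.347 to 1.98. With the block the putative salivary secreted peptide AE-376 rose, with a ratio of 1.54 (adjusted p 0.0482), and the putative salivary peptide AEA-219 fell, with a ratio of 0.693 (adjusted p 0.0325). These calls were lost in 8 and 9 of 15 other fits with the block, and under the normexp background AEA-219 was higher at 48 hpf. The hypothetical conserved protein AET-5165 of the housekeeping set fell too, with a ratio of 0.532 (adjusted p with the block 0.0154). AE-376, AEA-219 and AET-5165 fall outside the rule by which genes were named and were chosen after their values were seen.

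Non-overlapping groups were found for a few more of the secreted proteins. The putative 7.8 kDa protein AY949618 had 0.544, 0.778 and 1.37 at 24 hpf and 1.38, 1.42 and 1.80 at 48 hpf. The lowest value of 48 hpf was just above the highest of 24 hpf, the ratio was 1.70, and the adjusted p was 0.516, or 0.0938 with the block. It passed without a block when 24 hpf replicate 3, its highest array of that group, was left out (adjusted p 0.0253), and with no other array left out. The proline rich peptide AE-214 had a ratio of 1.69, also without overlap, and the glycine rich peptide AET-4173 one of 0.756. AE-236A, of a protein family of blood-feeding flies, had a ratio of 1.80, AE-212 one of 0.402, and AET-3713, detected on 3 arrays at 24 hpf and on 1 at 48 hpf, one of 0.347. The arrays of the groups did not overlap, over all 153 detected probes, for 8 higher (5.23%) and 13 lower (8.5%).

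**Figure D3:**
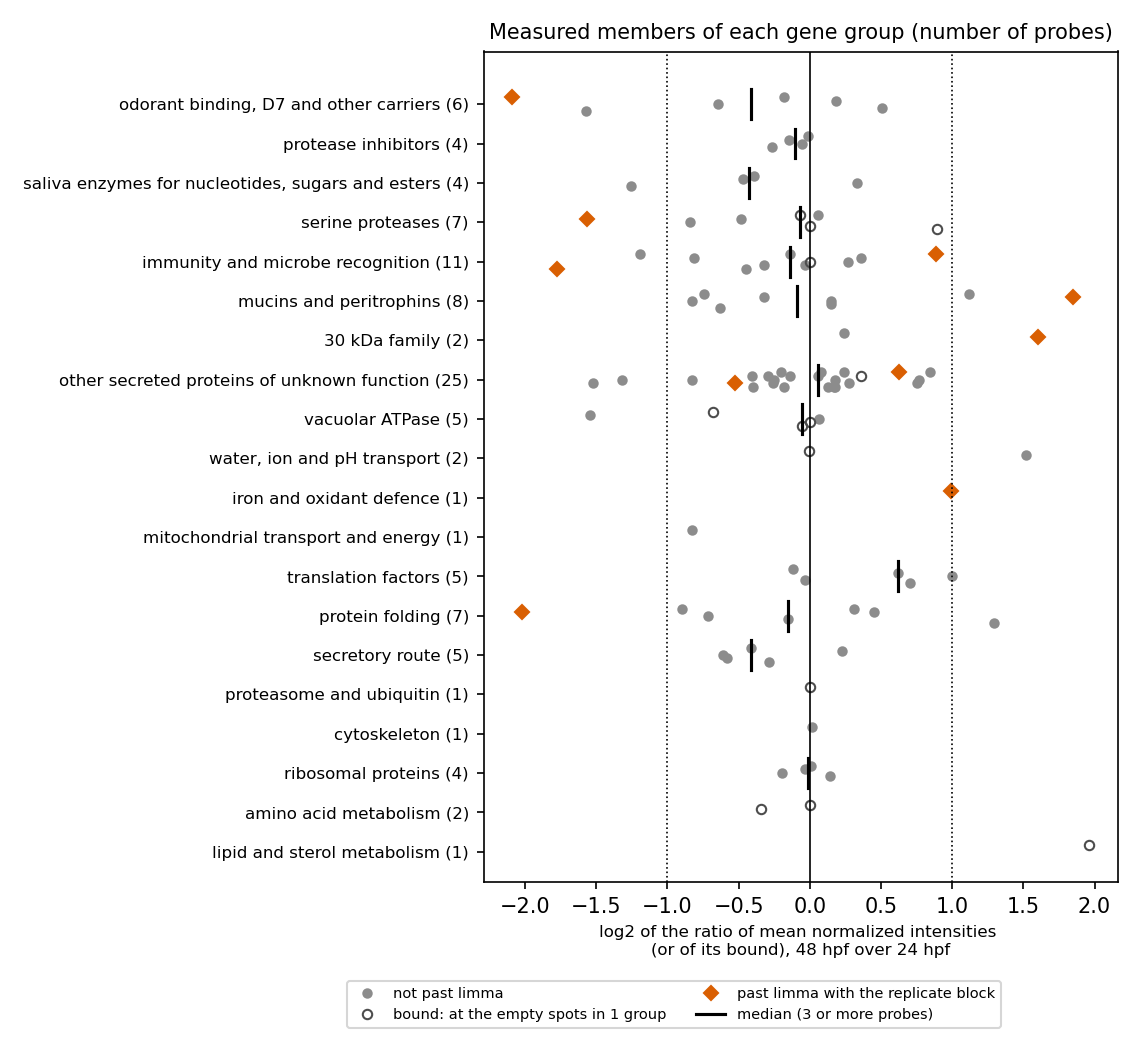
Log2 of the ratio of mean normalized intensities, 48 hpf over 24 hpf (horizontal), for the members of each gene group that were detected and not saturated on all 6 arrays (number in brackets). Diamonds passed limma with the replicate block, open circles are bounds for probes at the empty spots in 1 of the groups (at 0 where there is no bound), bars are medians, and the dotted lines are 2-fold. Near 0 lie the medians of the mucins, protease inhibitors, ribosomal proteins and secreted proteins of unknown function. Those of the serine proteases and the vacuolar ATPase do too, with 3 dim members each at a bound or at 0. The median of the translation factors is the highest among the groups with at least 3 such members.

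The message of the heavy chain of ferritin, the protein that stores iron, rose. The probe L37082 had 0.0899, 0.221 and 0.525 at 24 hpf and 0.246, 0.480 and 0.934 at 48 hpf. The groups overlap, the same-numbered arrays were 2.74, 2.17 and 1.78 times higher, and the ratio of means was 1.99. The log2 difference was 1.05 with an SE of 0.73, or 0.17 with the block (adjusted p 1, and 0.0154 with the block). It was lost in 5 of 15 other fits with the block, among them the one without 48 hpf replicate 2 (adjusted p 0.0896). The other 10 genes of iron handling and oxidant defence were not detected on 2 arrays of either group.

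The cell's machinery for protein folding held the remaining call. The cyclophilin isoform AE-296, a peptidyl-prolyl isomerase, had 0.202, 0.464 and 0.886 at 24 hpf and 0.0484, 0.0904 and 0.244 at 48 hpf. The groups overlap by a single pair of values, the same-numbered arrays of 48 hpf were 0.240, 0.195 and 0.275 of those of 24 hpf, and the ratio of means was 0.246. The log2 difference fell by 1.63 with an SE of 0.63, or 0.24 with the block (adjusted p 1, and 0.0123 with the block). It was lost in 4 of 15 other fits with the block, with an adjusted p of 0.0755 without 48 hpf replicate 2 and of 0.484 with the floor doubled. Calreticulin (AF466603), which helps new glycoproteins fold, had a ratio of 1.24, the heat shock cognate 70 probe AET-2544 one of 2.45 between dim values, detected on 1 and 2 arrays, and the 14-3-3 family protein AET-316 one of 0.537 (adjusted p with the block 0.0947). The 7 detected folding probes had a median of 0.900.

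The translation factors had the highest median of the groups with at least 3 measured members, without a member that passed. Elongation factor 2 (AY064104), which moves the ribosome along the message, had 0.218, 0.480 and 0.926 at 24 hpf and 0.484, 0.838 and 1.32 at 48 hpf. Its ratio was 1.63 and each same-numbered pair was higher at 48 hpf (adjusted p 1, and 0.0516 with the block). Elongation factor 1 alpha (AET-205), which brings the aminoacyl-tRNA, had a ratio of 2.00 (adjusted p with the block 0.0874), and the polyadenylate-binding protein AET-265 one of 1.54. Of 21 probes 5 were detected, 3 higher and 2 lower, with a median of 1.54. The 4 ribosomal proteins off the ceiling lay between 0.873 and 1.10.

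Most detected members of the secretory route had lower means at 48 hpf, as did most measured probes with a ratio. Again no member of it or of the proton pump passed the test. In the signal peptidase complex, which removes the leader of proteins that enter the endoplasmic reticulum, AE-301 had 0.246, 0.542 and 1.02 at 24 hpf and 0.161, 0.324 and 0.700 at 48 hpf. The groups overlap, the ratio was 0.657 (adjusted p 1, and 0.0874 with the block), and AE-284 of the same complex had a ratio of 0.668, though its log2 difference turned to 0.068 without 24 hpf replicate 3. Of 26 probes of the secretory route 5 were detected, 1 higher and 4 lower, with a median of 0.750. Of all 121 measured probes with a ratio, 48 were higher and 73 lower, with a median of 0.883.

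The vacuolar ATPase pumps protons into vesicles and drives fluid secretion across insect epithelia. Of its 9 probes 5 were detected, and 4 of these were lower at 48 hpf. However, 3 of these 4 were detected on no array of 48 hpf, which fixed their direction. Subunit F (AET-5847) had 0.151, 0.183 and 0.445 at 24 hpf and 0.0387, 0.0528 and 0.175 at 48 hpf, a ratio of 0.342, detected on 1 array of 48 hpf (adjusted p 1, and 0.0663 with the block). Subunit M9 (AE-415), subunit c (AF008924) and subunit C (AET-575) were detected on 3, 3 and 2 arrays at 24 hpf and on 0 at 48 hpf, which makes M9 at least 1.60-fold and c at least 1.04-fold lower and gives no bound for C. Without 24 hpf replicate 3 the log2 differences of these 3, taken after the floor of 0.108, were -0.044, 0 and 0.026. That floor lies above the detection limits of 24 hpf replicates 1 and 2, 0.0731 and 0.0423. Detected signals on these arrays can thus be raised to it, so the differences do not show whether the lower values rest on replicate 3. The median ratio of the 5 was 0.343, or 0.964 with these 3 at their bound or at 1, against 0.883 and 0.978 for all measured probes. The aquaporin AET-3896, a water channel, was detected on 2 arrays at 24 hpf and on 0 at 48 hpf, with no fold to give beyond 1.

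A few enzymes were at the level of the empty spots in 1 of the groups, and none of them passed without or with the block. Acetyl-CoA acetyltransferase (AET-7648), which joins acetyl units at the entry of the mevalonate route, had 0.00219, 0.0102 and -0.0104 at 24 hpf and 0.145, 0.289 and 0.651 at 48 hpf. It was detected on no array of 24 hpf and on all of 48 hpf, so that it was at least 3.89-fold higher (adjusted p 0.395, and 0.0938 with the block). It passed without a block with a pseudocount in place of the floor (adjusted p 0.0140), with the lower floor (0.0361) and without 48 hpf replicate 1 (0.00916). In the unfed, 1 hpf and 3 hpf pools its means were 0.0454, 0.0206 and 0.0143, so 48 hpf was the highest of the 5 means.

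Carbonic anhydrase VII (AET-363), which turns carbon dioxide into bicarbonate, had 0.0676, 0.110 and 0.306 at 24 hpf and 0.233, 0.342 and 0.808 at 48 hpf. The values overlap, the ratio was 2.86, and the adjusted p was 0.594, or 0.129 with the block. Carboxypeptidase B (AY590494), an exopeptidase, had a ratio of 1.90 (adjusted p with the block 0.280). The mitochondrial porin AET-2852, the channel of the outer membrane, had 0.681, 1.17 and 1.52 at 24 hpf and 0.304, 0.572 and 1.02 at 48 hpf, with a ratio of 0.562 (adjusted p 1, and 0.0518 with the block).

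The enzymes of serine synthesis that were detected were near the limit of the array. Phosphoglycerate dehydrogenase (AET-3626) had 0.0103, 0.0924 and 0.239 at 24 hpf and -0.0163, -0.0177 and -0.0161 at 48 hpf. Phosphoserine aminotransferase (AE-3793), the next enzyme of that route, had 0.0538, 0.120 and 0.317 at 24 hpf and -0.0180, 0.00230 and -0.000561 at 48 hpf. Both were detected on 2 arrays at 24 hpf and on 0 at 48 hpf. They count as detected through 24 hpf alone, so lower values at 48 hpf follow from that choice. Without 24 hpf replicate 3 the log2 difference of AET-3626 was 0, since its values on all other arrays of the 2 groups lay under the floor of 0.108. That of AE-3793 ranged from -0.855 to -0.0771 when 1 array was left out. AE-3793 was at least 1.27-fold lower and AET-3626 gives no bound (adjusted p 1 for both, with and without the block). They are the 2 of 9 probes of amino acid metabolism that were detected. Selenophosphate synthetase (AET-2690), which makes the selenium donor of selenoproteins and was picked with its values known, had 0.118, 0.266 and 0.622 at 24 hpf and 0.00224, 0.0180 and 0.0517 at 48 hpf, at least 2.70-fold lower (adjusted p 1, and 0.280 with the block). A proteasome regulatory subunit (AET-397) was detected on 2 arrays at 24 hpf and on 0 at 48 hpf, with no bound.

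Over the 5 pools, the genes with the largest steps had different courses. The odorant binding protein AE-352 had means of 0.746, 0.140 and 0.131 in unfed, 1 hpf and 3 hpf glands, so that the 24 hpf level of 2.20 ± 0.314 (SD, 3 arrays) was the highest of the series and 48 hpf, at 0.517 ± 0.351, lay between the others. Angiopoietin-like AE-6349 had its highest mean at 24 hpf, 1.39 ± 0.312, and the lowest in unfed glands, 0.0956. Defensin A1 had its highest mean at 3 hpf, 1.96, followed by 1.70 at 1 hpf, and gambicin had 1.83 at 3 hpf and 1.84 at 24 hpf. At 48 hpf gambicin was at 1.05 ± 0.404 and in unfed glands at 1.14, in units that differ between these pools. The 30 kDa protein AY951940 was high at 1 hpf and 48 hpf, with means of 0.997 and 1.03, and low at the other times. The mucin AET-6286 was lowest at 24 hpf, 0.142 ± 0.0788, and at 48 hpf, at 0.509 ± 0.285, lay among the earlier means of 0.414 to 0.579. Actin made up 14.1% to 38.9% of the reference on the unfed arrays and 1.56% to 5.90% on those of 48 hpf. The unit of the normalized intensity therefore differs between pools, which limits a comparison of levels over the series. These courses are given as levels and the steps other than 24 to 48 hpf were not tested here.

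**Figure D4:**
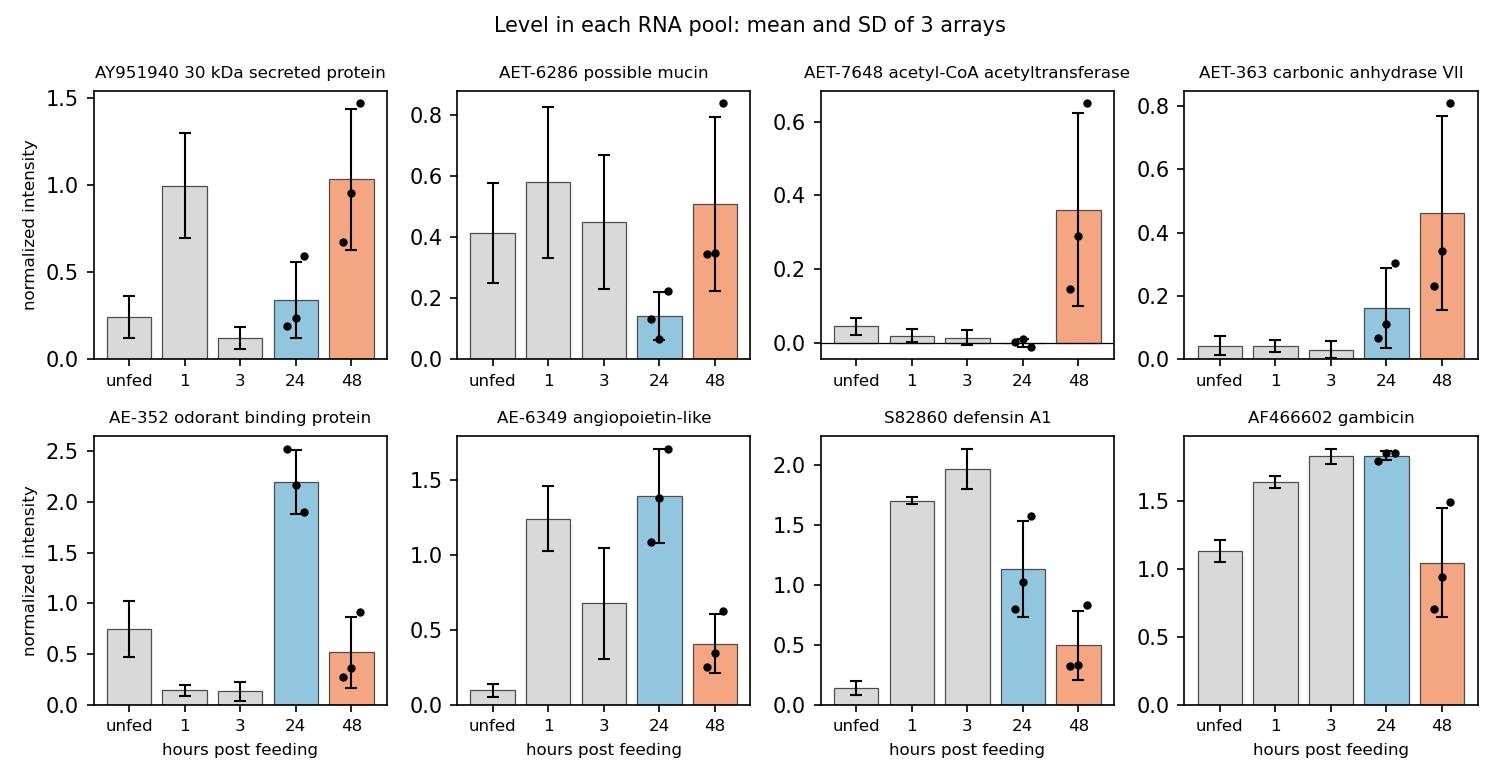
Normalized intensity (vertical, linear axis, own scale in each panel) of 8 genes in the unfed pool and at 1, 3, 24 and 48 hpf (horizontal). Bars are means and error bars SDs of 3 arrays, with the single arrays of 24 and 48 hpf as points, and the odorant binding protein stands out at 24 hpf with 2.20 against 0.517 at 48 hpf. The share of actin in the reference differed between the pools.

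The probes taken as markers of haemocytes, muscle and the eye were dim, while a trypsin taken as the marker of the midgut was detected in both groups. For haemocytes 2 probes were taken, the prophenoloxidase activators AF466614 and AET-5733, with 1 of the 2 detected in each group. They summed to 0.112 to 0.293 at 24 hpf and to 0.0785 to 0.410 at 48 hpf. Both are activators rather than prophenoloxidase itself and stand among the serine proteases above, so they cannot tell haemocytes from gland. Large trypsin (AEA-876), taken as the marker of the midgut, had 0.137, 0.252 and 0.614 at 24 hpf and 0.0622, 0.124 and 0.374 at 48 hpf, a ratio of 0.558 (adjusted p 1, and 0.0874 with the block). It also stands among the serine proteases above, and the paper chose the array's genes from a salivary gland transcriptome. It therefore cannot tell midgut from gland. Opsin (AET-596), a marker of the eye, was detected on 2 arrays at 24 hpf and on 0 at 48 hpf. The 2 probes taken as muscle markers, actin and myosin light chain, were detected on at least 2 arrays in neither group. Actin (AE-314) was at 0.0352, 0.0383 and 0.153 and then at 0.0352, 0.0311 and 0.118. The array names it only as actin and not as a muscle form, so it cannot tell muscle from other cells. The part of other tissues, of the number of cells and of RNA per cell in the lower values at 48 hpf was not tested.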

How the data were processed

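Per the labels and the paper's methods, biotin-labelled cRNA of pooled salivary glands was hybridized to nylon oligo arrays, 3 for each of the 5 pools. The raw sheet deposited by the authors holds spot and local background intensities, and the report sheet the normalized intensity, which recomputed from the raw sheet differed by at most 0.000129. The score values of the series matrix, deposited by the authors as 1 ratio to unfed per group, served as an alternative. The authors' lists of ratios and p-values were not used.

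The 3 spots of 1 probe were averaged. Values were raised to a floor of 0.108, the median over 15 arrays of 2 SD of the 22 empty spots, taken to log2 and fitted over 5 groups with limma 3.58.1 in R 4.3.3 (contrast 48 minus 24 hpf, Benjamini-Hochberg over 432 probes, S5 left out as the reference). The 218 probes at the floor on every array were counted as not passing. They stayed in the fit, however, and so entered the shared estimate of the spread, on which the counts of calls depend. Ratios are of group means, with the 2-fold limits of the methods. The number of arrays limits the precision.

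Same-numbered arrays of 24 and 48 hpf deviated together from their group means over 122 probes, with correlations of 0.669, 0.553 and 0.616, and those of all 5 groups with 0.424 to 0.787, so the replicate number was also fitted as a block. On simulated data with 432 probes the fit recovered 70, 70 and 100 percent of 2-fold, 4-fold and 8-fold changes without the block, with 0 false calls, and 90, 100 and 100 percent with it, with 2 false calls. The simulated arrays had a replicate effect of the kind a block takes out, so this gain was built in. The changes were put only into brighter probes, so the recovery does not hold for dim ones. Probes flat at the floor in the data were given a small spread in the simulation. Its shared estimate of the spread therefore differs from that of the real fit, and its rates need not hold there.

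Genes were named from those past limma without the block (0), those past it with the block whose arrays do not overlap, up to 4 members per gene group with the largest difference, and the genes the study listed; those with a ratio near 1, at the empty spots in both groups or at the ceiling are mostly given within counts. The members, lists and alternatives were chosen with earlier results of these data known, and the final members of the gene groups were set by gene description after the values were seen. None of the identifiers stands in the RefSeq table at hand, so the names are those of the array's design. Versions used were Python 3.11.15, pandas 2.3.3, numpy 2.4.6 and scipy 1.17.1.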

Additional observations from a re-analysis of the deposited data

How the results depend on the processing

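The counts of ratios moved with the handling of dim probes. Against 22 probes at least 2-fold and 59 at most 0.5-fold, quantile normalization gave 46 and 45, the normexp background 12 and 12, the detected probes alone 7 and 24, and the series matrix values 48 and 62. Leaving out 1 array gave 7 to 53 probes at least 2-fold and 29 to 86 at most 0.5-fold; 48 hpf replicate 3 gave the 7 and 24 hpf replicate 3 the 53 and the 29. The median log2 ratio over 151 detected probes was 0.06, and -0.18 without the probes saturated throughout, whose ratio follows the reference spots; without 1 array it ranged from -0.21 to 0.14. Scaling moved that median by 0.06 or less.

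Without the block, where 0 probes passed limma in either direction, quantile normalization gave 26 higher and 23 lower, the normexp background 1 higher (AY951940), the detected probes alone 2 lower (AE-352 and AE-6349), a pseudocount in place of the floor 1 higher and 1 lower (AET-7648 and AE-352), and the floor at 0.5 times 1 higher (AET-7648). Leaving out 1 array gave 0 to 1 higher and 0 to 4 lower. A t-test on the normalized values, unadjusted, with the p and 2-fold limits of the methods, which name no test, gave 1 higher and 3 lower, and 0 and 0 after Benjamini-Hochberg adjustment. S5 alone, median scaling, the floor at 2 times, the 24 and 48 hpf arrays alone and leaving out the saturated probes gave 0.

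The replicate block gave 5 higher and 6 lower. Fits that joined the block to a second choice were added after seeing the data. They gave 14 and 23 with the detected probes alone, 7 and 10 with S5 alone, 11 and 12 with median scaling, 34 and 30 with quantile normalization, 7 and 3 with the normexp background, 21 and 39 with a pseudocount, 10 and 15 with the floor at 0.5 times and 1 and 4 with the floor at 2 times. With the block and the 6 arrays of 24 and 48 hpf alone 0 passed. Leaving out 1 array with the block gave 2 to 7 higher and 1 to 11 lower. The 11 probes kept their call in between 6 (AEA-219) and 14 (AY951940) of 15 such fits. The cause of these differences was not tested.

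Single genes changed direction in these cases: AEA-219 under the normexp background, with and without the block (log2 0.55), AE-260 under it (-0.26), AET-5733 without 48 hpf replicate 3 (-0.048, range without 1 array to 0.82), and, without 24 hpf replicate 3, AET-575 (0.026, range from -0.37), AE-284 (0.068, from -1.05) and actin AE-314 (0.044, from -0.21). In 23 further cases the values of a gene lay at the floor of the setting in both groups, with a difference of 0, which under the normexp background took in genes detected on all 24 hpf arrays, such as AE-466. The other values of the named genes kept their direction. The empty spots limit dim probes, and the ceiling limits the 30 probes saturated on all 6 arrays.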
